A study of Rattus norvegicus with 30 samples.

Results

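The mitochondrial respiratory chain and ATP synthase are built from subunits of which most are encoded in the nucleus, and 54 of these nuclear genes are described here in rat hearts after a single dose of isoproterenol. They comprise 26 genes of complex I, 4 of complex II, 7 of complex III, 10 of complex IV, 6 of complex V and Cycs, which encodes cytochrome c. The genes were taken by symbol, accepting former symbols such as Atp5a1 for Atp5f1a. They were not selected by their values, but earlier results of these data were known when they were chosen. Of the 54 genes, 50 had a tested probe set that names a single gene, among 12451 genes tested in all. The other 4, Ndufa10, Uqcrb, Cycs and Cox7a2, were matched only by probe sets that list several genes and were not analysed here.

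Hearts of male Crl:Wi(Han) rats were sampled 1, 3, 24 and 72 h after isoproterenol hydrochloride, which stimulates beta-adrenergic receptors, or after vehicle, and total RNA was measured on single-colour Affymetrix rat arrays. Each time had its own vehicle group of 3 arrays, and the isoproterenol groups had 5, 4, 4 and 5 arrays at 1, 3, 24 and 72 h. The dose was 0.5, which the labels give in mg/kg/ml and the design text in mg alone. The design text also names an earlier last time than the labels, and the labels' 72 h was used. The sources used here do not give the age of the animals. The arrays of a group are titled biological replicates, but nothing states that each came from its own animal, so the p-values measure the spread between these samples, which may be technical in part.

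In the inner mitochondrial membrane, complexes I and II pass electrons from NADH and succinate to ubiquinone. Complex III passes them on to cytochrome c, and complex IV passes them to oxygen. Complexes I, III and IV pump protons across the membrane, and complex V, the ATP synthase, uses the proton gradient to make ATP. Heart muscle cells are rich in mitochondria and draw most of their ATP from this pathway. All 4 subunits of complex II are nuclear, whereas complexes I, III, IV and V also hold subunits encoded by mitochondrial DNA. None of the 13 mitochondrially encoded genes had a tested probe set here.

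Deposited intensities were not on a common scale, with array medians between 21.2 and 70.3, and quantile normalization was applied before testing. Levels are given as normalized log2(intensity + 16), and changes as isoproterenol minus vehicle on that scale ± standard error. A gene passed at a limma moderated test p under 0.05 after Benjamini-Hochberg adjustment over 24292 probe sets. After normalization, arrays of the same group correlated with r between 0.934 and 0.984. The cardiac label was checked with a list of 20 cardiomyocyte sarcomere genes, of which 18 were measured: their mean level lay between 12.65 and 12.96 on all 30 arrays, against a median of 7.07 for all genes in vehicle hearts. Vehicle arrays carry numbers 4 to 21 and isoproterenol arrays 33 to 62 in the labels, so the order of the arrays and the treatment cannot be told apart. In whole tissue, fewer cells of a type and less RNA per cell cannot be told apart either.

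In vehicle hearts the subunit transcripts gave some of the brightest signals on the array. Their median level over the 12 vehicle arrays was 12.39, from 8.23 for Cox5a to 13.33 for Atp5f1b, and 46 of the 50 lay in the brightest 5% of genes. Brightness also depends on the probes of a probe set, so this is no order of transcript abundance. No subunit differed among the 4 vehicle groups by limma's moderated F test, with a lowest adjusted p of 0.075 for Ndufs4, while 0.0562% of all genes tested did.

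No subunit passed in either direction at 1 h or at 3 h in limma's test. At 1 h, 3.41% of all genes tested passed in either direction, with 1.04% lower and 2.37% higher, and at 3 h 13.3% passed, with 6.33% lower and 6.94% higher. Every isoproterenol array lay below every vehicle array for 5 subunits at 1 h and 7 at 3 h, where this held for 8.54% and 11.2% of all genes. At an unadjusted p under 0.05, 1662 and 3383 of the 12451 genes tested differed at 1 h and 3 h. Of the subunits, 0 differed at 1 h and 1 at 3 h by that measure. That one was Ndufb6, an accessory subunit of complex I, with a change of -0.41 ± 0.18 and an adjusted p of 0.15. The median change over the 50 subunits was -0.03 at 1 h and -0.08 at 3 h, close to the medians of -0.03 and -0.06 over all genes, and its sign changed with the scaling of the arrays. When only the arrays of 1 time were fitted, 3 subunits passed as lower at 1 h.

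At 24 h, 7 of the 50 subunits (14%) were lower past the threshold, where 7.19% of all genes tested were lower and 17.2% passed in either direction. They were the 4 complex II genes Sdha, Sdhb, Sdhc and Sdhd and the complex I genes Ndufs1, Ndufs3 and Ndufa9. No subunit was higher at 24 h, by limma's test or at an unadjusted p under 0.05, where 10.0% of all genes were higher. Of the 50 changes, 46 were below 0, with a median of -0.18 against -0.01 over all genes. At an unadjusted p under 0.05, 18 of the 50 differed, where 3862 of the 12451 genes tested did in either direction. For genes with a vehicle level of at least 12, the counts were 15 of 32 subunits and 62 of 120 others. Every isoproterenol array lay below every vehicle array for 13 subunits (26%), where this held for 12.5% of all genes. Bright genes in general were often apart at this time. Among genes with a vehicle level of at least 12, groups did not overlap, in either direction, for 13 of 32 subunits and 57 of 120 others. A measure of RNA quality also moved with treatment at this time. The beta-actin probe set at the 3′ end exceeded that at the 5′ end by 1.46 to 1.92 on the log2 scale in vehicle and by 0.88 to 1.34 after isoproterenol, with no overlap. For Gapdh the same difference was 0.32 to 0.37 and 0.33 to 0.51. The part of RNA quality in the result was not tested.

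At 72 h, with all arrays in the fit, the subunits that passed as lower came from all 5 complexes. Past the threshold, 31 of the 50 subunits (62%) were lower, where 8.71% of all genes tested were lower by the same rule. No subunit was higher, by limma's test or at an unadjusted p under 0.05, where 13.3% of all genes were higher. The median change was -0.39 against 0.01 over all genes, and 49 of the 50 changes were below 0. The exception was Ndufa5, an accessory subunit of complex I, at 0.09 ± 0.30. The size of the changes was moderate, from -0.88 ± 0.29 for Cox7a1, a 1.85-fold lower level, to the -0.29 ± 0.10 of Cox6a2, 1.22-fold lower, among the 31 that passed, each by the brightest probe set of its gene. Every isoproterenol array lay below every vehicle array for 14 subunits (28%), against 7.34% of all genes. The beta-actin difference between 3′ and 5′ probe sets overlapped here, at 0.97 to 1.98 in vehicle and 1.12 to 1.63 after isoproterenol.

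**Figure D1:**
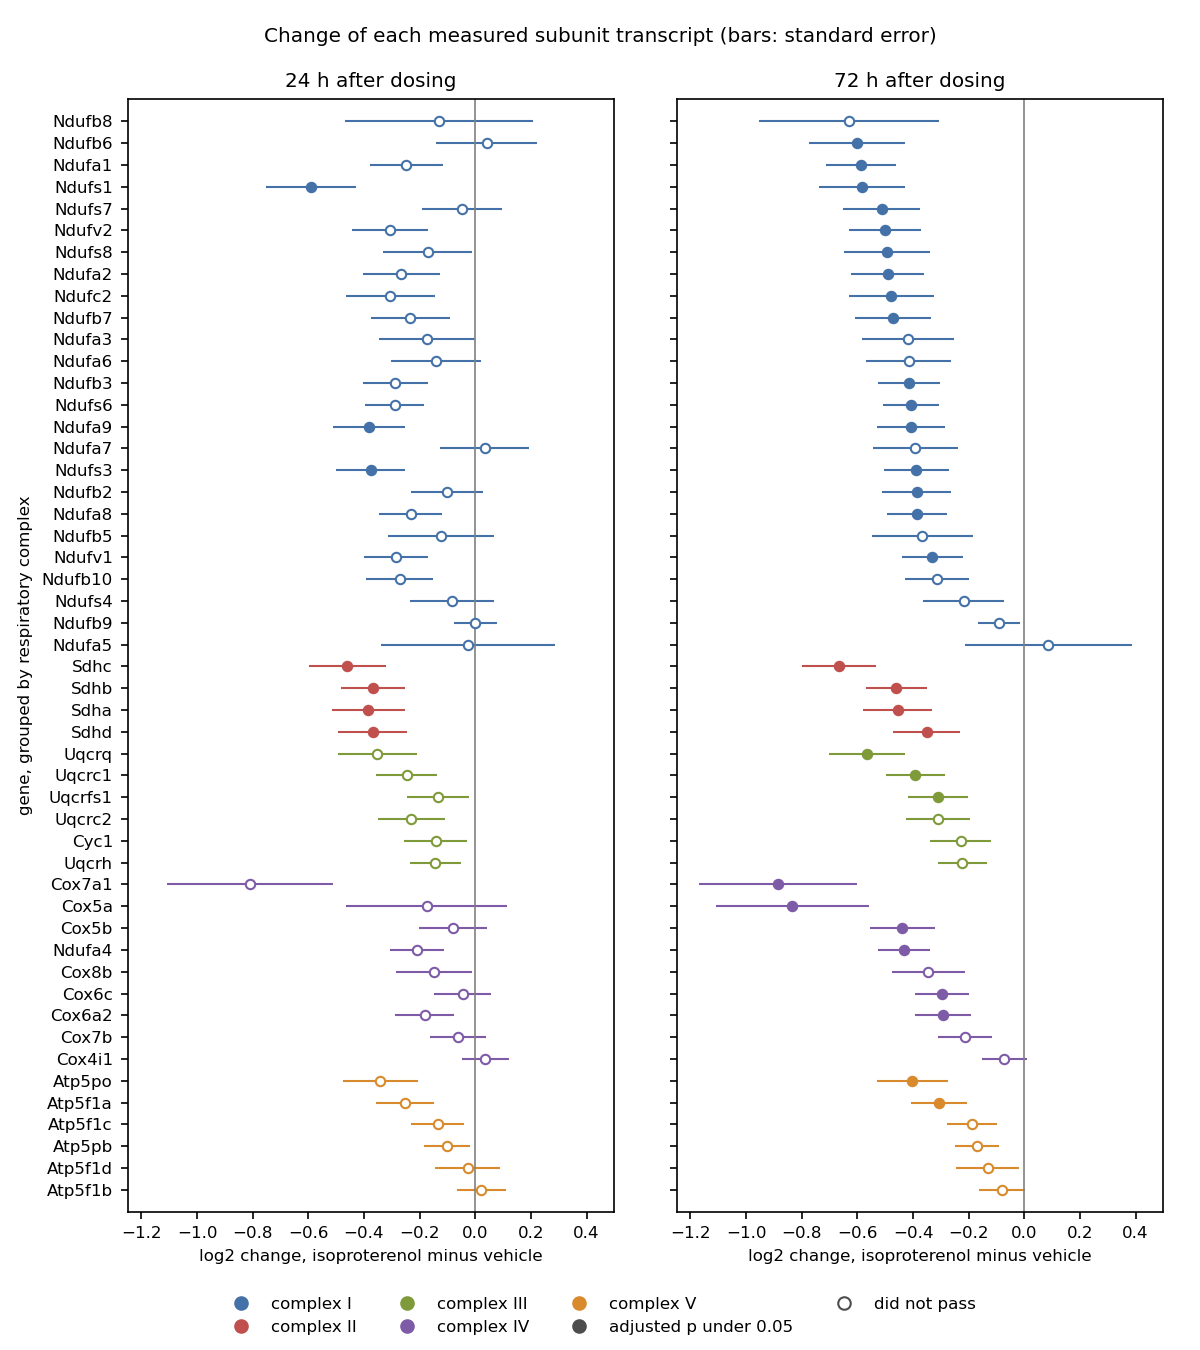
Log2 change with its standard error for each of the 50 measured subunits at 24 h (left) and 72 h (right), grouped by complex and ordered by the change at 72 h; filled points passed an adjusted p of 0.05. At 24 h the 7 filled points are 3 of complex I and all 4 of complex II, and at 72 h 31 points across the 5 complexes are filled.

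The number of subunits that passed rested on single arrays, more than the direction did. At 72 h, 13 subunits passed without vehicle replicate 1, and 13 also passed without the third vehicle array. The count was 18 without isoproterenol replicate 2, 15 without isoproterenol replicate 3 and 43 without isoproterenol replicate 1. No complex V subunit passed without vehicle replicate 1, vehicle replicate 3, isoproterenol replicate 2 or isoproterenol replicate 3. Of complex I, 6 subunits passed without vehicle replicate 1 and 6 without vehicle replicate 3. In all 8 fits that left out an array of 72 h, 49 of the 50 changes stayed below 0, and 9 subunits passed in every one of them: Ndufa1, Ndufs1, Ndufs6 and Ndufv2 of complex I, Sdhb and Sdhc of complex II, Uqcrc1 and Uqcrq of complex III, and Ndufa4 of complex IV. At 24 h the count was 14 without isoproterenol replicate 3, 0 without isoproterenol replicate 2, and 1 without any other single array of that time, and 34 of the 50 changes stayed below 0 in all 7 fits. With only the 8 arrays of 72 h in the fit 3 subunits passed, with only the 7 arrays of 24 h 0 passed, and without any normalization 0 passed at either time. The main fit shares 1 estimate of the spread per probe set over all 8 groups. The standard deviation of the subunit mean over isoproterenol arrays was 0.032, 0.024 and 0.14 at 1, 3 and 24 h. At 72 h these means ran from 11.35 to 12.002. Where the late groups spread more than the shared estimate, their standard errors and p-values can be too small.

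Complex I, which oxidises NADH, had 25 measured subunits, of which 3 were lower at 24 h and 16 at 72 h, with medians of -0.23 and -0.42. Its 6 measured core subunits, which carry the flavin and the iron-sulfur clusters of electron transfer or stand next to them, were all lower at 72 h, with a median of -0.50. Of the 19 measured accessory subunits, 10 were lower, with a median of -0.41.

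Ndufs1, the largest iron-sulfur subunit, read 12.48, 12.56 and 12.49 on the vehicle arrays of 24 h and 11.91, 11.44, 12.39 and 11.94 on the isoproterenol arrays. The groups did not overlap, although isoproterenol replicate 3 lay just under the vehicle arrays. The change was -0.59 ± 0.16 with an adjusted p of 0.014, a 1.505-fold lower level. At 72 h Ndufs1 read 12.43, 12.47 and 12.36 in vehicle and 12.38, 11.67, 11.39, 11.85 and 11.90 after isoproterenol. Here isoproterenol replicate 1 lay within the vehicle range and the other 4 arrays below it, with a change of -0.58 ± 0.16 and an adjusted p of 0.0082.

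Ndufs3, a core subunit of the arm that faces the matrix, was lower by a similar amount at both times, at -0.38 ± 0.12 (adjusted p 0.041) and -0.39 ± 0.12 (adjusted p 0.021). Ndufa9, an accessory subunit at the junction of the 2 arms, changed by -0.38 ± 0.13 (adjusted p 0.045) and -0.41 ± 0.12 (adjusted p 0.019). For Ndufa9 the groups did not overlap at either time, with vehicle arrays from 12.18 to 12.29 and isoproterenol arrays from 11.73 to 11.97 at 24 h. A dim second Ndufa9 probe set changed by -0.60 ± 0.24 (adjusted p 0.10) and -0.50 ± 0.23 (adjusted p 0.14) and did not pass.

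Ndufa1, a small accessory subunit of the membrane arm, showed its fall at 72 h. It read 12.79, 12.68 and 12.63 in vehicle against 12.36, 12.06, 11.70, 12.20 and 12.24 after isoproterenol, with no overlap. The change was -0.59 ± 0.13, 1.503-fold lower, with an adjusted p of 0.0015. At 24 h the change was -0.25 ± 0.13 with an adjusted p of 0.25, and isoproterenol replicates 2 and 3 lay inside the vehicle range.

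Ndufb6, another membrane-arm accessory subunit, read 11.62, 10.84 and 11.58 in vehicle at 72 h and 11.13, 10.25, 10.41, 10.95 and 10.97 after isoproterenol. Its vehicle arrays were far apart and the groups overlapped through vehicle replicate 2. The change was -0.60 ± 0.17 with an adjusted p of 0.015.

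Ndufa7, an accessory subunit, was the complex I gene whose probe sets disagreed. Its bright probe set did not pass at any time. A dim second probe set was higher at 3 h, with 6.03, 5.21 and 5.97 in vehicle and 6.73, 6.56, 6.20 and 6.42 after isoproterenol, a change of 0.74 ± 0.20 and an adjusted p of 0.014.

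Complex II is succinate dehydrogenase, which belongs to both the citric acid cycle and the respiratory chain. It was the complex in which all measured subunits, 4 of 4, were lower at 24 h and again at 72 h, with medians of -0.38 and -0.46. Sdha carries the flavin and the succinate site, Sdhb the iron-sulfur clusters, and Sdhc and Sdhd anchor the enzyme in the membrane. At 3 h the changes lay between -0.25 and -0.07 and none passed.

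Because these 4 genes moved together, the 200 bases before the transcription start of each are shown, from RefSeq promoter windows on assembly GRCr8. They lie at chr1:30764353-30764552 on the plus strand for Sdha, chr5:158547734-158547933 on the plus strand for Sdhb, chr13:86098026-86098225 on the minus strand for Sdhc, and chr8:59850642-59850841 on the minus strand for Sdhd. Each is upstream of the gene and is written 5′ to 3′ on the gene's strand. Capitals mark matches, on either strand, to core motifs of factors known for nuclear genes of mitochondrial proteins: AAGGTCA for estrogen-related receptors, GCGCATGC for NRF1, CCGGAAG for ETS factors such as GABP, and AAGATGGC for YY1.
Sdha: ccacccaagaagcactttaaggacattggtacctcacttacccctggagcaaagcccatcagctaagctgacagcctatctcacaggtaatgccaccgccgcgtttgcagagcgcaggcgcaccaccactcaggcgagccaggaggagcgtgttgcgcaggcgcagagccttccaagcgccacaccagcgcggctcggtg
Sdhb: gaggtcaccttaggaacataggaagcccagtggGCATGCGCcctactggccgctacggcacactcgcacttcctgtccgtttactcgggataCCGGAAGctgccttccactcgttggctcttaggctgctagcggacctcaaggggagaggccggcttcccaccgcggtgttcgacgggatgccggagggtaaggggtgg
Sdhc: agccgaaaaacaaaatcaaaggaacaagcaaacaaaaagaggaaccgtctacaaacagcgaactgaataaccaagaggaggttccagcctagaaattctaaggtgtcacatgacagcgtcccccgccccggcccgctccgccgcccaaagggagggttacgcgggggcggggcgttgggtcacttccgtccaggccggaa
Sdhd: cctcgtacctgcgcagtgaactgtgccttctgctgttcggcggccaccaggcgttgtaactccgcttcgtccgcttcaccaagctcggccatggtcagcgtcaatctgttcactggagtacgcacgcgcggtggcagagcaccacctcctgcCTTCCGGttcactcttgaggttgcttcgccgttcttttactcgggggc

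None of the motifs searched is in all 4 of the stretches shown. The Sdhb window holds an NRF1 match 167 bases and an ETS match 108 bases before the start, the Sdhd window an ETS match 48 bases before it, and the 200 bases shown for Sdha and Sdhc hold none of the 4 letter strings. All 4 stretches are rich in G and C, from 56.5% for Sdhc to 63% for Sdhb, with 13 to 18 CG dinucleotides each. Over the full RefSeq windows of 300 bases, which reach 50 bases past the start, promoters of 49 of the 54 genes were matched. In these, outside the bases shown, Sdhc holds the YY1 string and Sdhd the estrogen-related receptor string. The ETS string was in 15 of these 49 (30.6%), against 9.22% of 27457 promoters of all genes, and the YY1 string in 11 (22.4%), against 3.44%. NRF1 and estrogen-related receptor strings were each in 5 of the 49 (10.2%), against 2.66% and 4.37% of all promoters. The promoters of all genes were not matched to these for G and C content or for expression, and the part of either in these shares was not tested. Such matches describe the sequence and do not show that a factor binds there.

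Sdha read 12.73, 12.66 and 12.64 in vehicle at 24 h and 12.31, 12.03, 12.52 and 12.32 after isoproterenol. The groups did not overlap, and the change was -0.38 ± 0.13 with an adjusted p of 0.049. At 72 h it read 12.73, 12.62 and 12.47 in vehicle against 12.63, 12.05, 11.72, 12.05 and 12.33, and isoproterenol replicate 1 lay among the vehicle arrays. The change there was -0.46 ± 0.13 with an adjusted p of 0.011.

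Sdhb showed the same arrangement of arrays. At 24 h it read 12.61, 12.51 and 12.55 in vehicle and 12.17, 11.99, 12.43 and 12.17 after isoproterenol, with no overlap, a change of -0.37 ± 0.11 and an adjusted p of 0.029. At 72 h it read 12.63, 12.51 and 12.65 against 12.52, 12.001, 11.81, 12.22 and 12.15, with a change of -0.46 ± 0.11 and an adjusted p of 0.0035. Only isoproterenol replicate 1 reached the lowest vehicle array.

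Sdhc had the largest change of the 4 at 72 h. It read 12.25, 11.99 and 12.20 in vehicle and 11.82, 11.41, 11.21, 11.54 and 11.44 after isoproterenol, with no overlap. The change was -0.67 ± 0.13, 1.59-fold lower, with an adjusted p of 7.2e-04. At 24 h it read 12.10, 12.001 and 12.09 in vehicle and 11.56, 11.48, 11.97 and 11.39 after isoproterenol, with a change of -0.46 ± 0.14 and an adjusted p of 0.025.

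Sdhd read 12.36, 12.17 and 12.31 in vehicle at 24 h against 11.88, 11.63, 12.13 and 12.02, with no overlap, a change of -0.37 ± 0.13 and an adjusted p of 0.047. At 72 h it read 12.30, 12.22 and 12.23 against 12.34, 11.67, 11.66, 11.87 and 11.95, so isoproterenol replicate 1 was above every vehicle array and the other 4 were below. The change was -0.35 ± 0.12 with an adjusted p of 0.039. A second Sdhd probe set changed by -0.17 ± 0.19 at 24 h, which did not pass, and by -0.58 ± 0.18 at 72 h, with an adjusted p of 0.026.

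**Figure D2:**
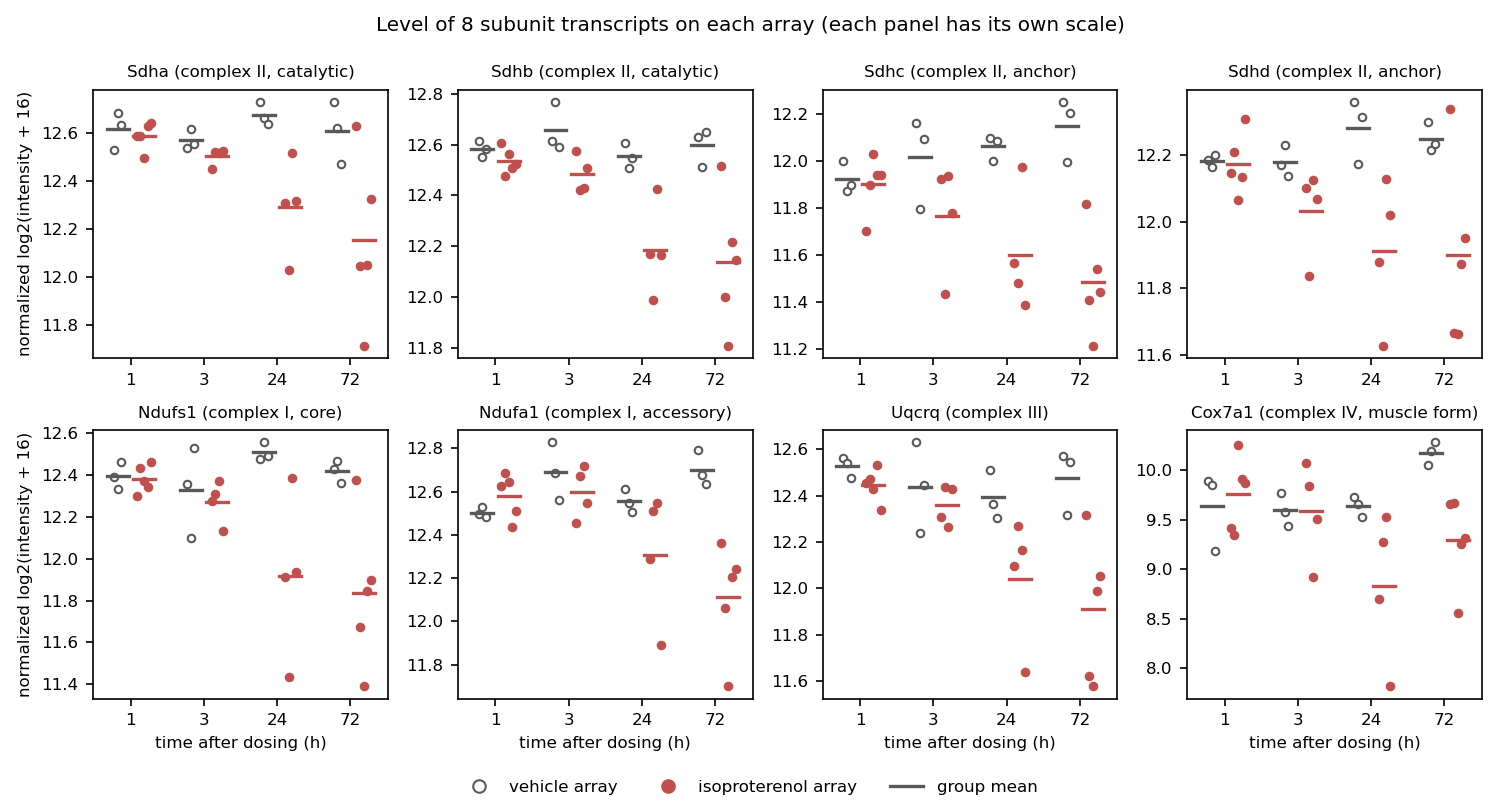
Normalized log2(intensity + 16) of 8 subunit transcripts on every array at 1, 3, 24 and 72 h; open points are vehicle arrays, filled points isoproterenol arrays and lines group means, and each panel has its own vertical scale. The isoproterenol arrays of 24 and 72 h spread more widely than those of 1 and 3 h, and 1 isoproterenol array at each late time stays near the vehicle arrays for the complex II genes.

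The complex II calls at 24 h were close to the threshold. Each of the 4 genes passed in 1 of the 7 fits that left out an array of 24 h, the fit without isoproterenol replicate 3. None of them passed at 24 h when arrays were centred on their medians, with limma adjusted p-values of 0.080, 0.094, 0.12 and 0.19 for Sdha, Sdhb, Sdhc and Sdhd. At 72 h Sdha, Sdhb and Sdhc passed with that scaling, and Sdhd did not, with an adjusted p of 0.090.

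Complex III passes electrons from ubiquinol to cytochrome c and had 6 measured subunits. None passed at 24 h, where the median was -0.19. At an unadjusted p under 0.05, 2 of the 6 differed at that time, as did 3862 of the 12451 genes tested. At 72 h 3 were lower, with a median of -0.31. These were Uqcrq, Uqcrc1 and Uqcrfs1. Uqcrq, a small subunit bound near cytochrome b, read 12.57, 12.32 and 12.55 in vehicle at 72 h and 12.32, 11.62, 11.58, 11.99 and 12.05 after isoproterenol. Only isoproterenol replicate 1 reached the vehicle range, and the change was -0.57 ± 0.14, 1.48-fold lower, with an adjusted p of 0.0038. Uqcrfs1, the Rieske iron-sulfur protein, changed by -0.31 ± 0.11 with an adjusted p of 0.041, and Cyc1, which is cytochrome c1, by -0.23 ± 0.11 with an adjusted p of 0.15.

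Uqcrc2, a core subunit of complex III, had probe sets that changed in the same direction at 72 h and by different amounts. The brightest one changed by -0.31 ± 0.11, which did not pass, with an adjusted p of 0.059. A second, dimmer one read 12.12, 9.46 and 11.78 in vehicle at 72 h and 9.93, 8.23, 9.33, 9.61 and 10.45 after isoproterenol. Its vehicle arrays were far apart and the groups overlapped through vehicle replicate 2. It was 3.05-fold lower, at -1.61 ± 0.50 with an adjusted p of 0.024, and did not pass at the other times.

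Complex IV, cytochrome c oxidase, had 9 measured subunits with Ndufa4 counted here, where it is now placed after earlier assignment to complex I. None passed at 24 h, where the median was -0.15. At an unadjusted p under 0.05, 2 of the 9 differed at that time, as did 3862 of the 12451 genes tested. At 72 h 6 were lower, with a median of -0.35. With Ndufa4 counted in complex I instead, the counts at 72 h were 17 of 26 for complex I and 5 of 8 for complex IV. Ndufa4 read 12.68, 12.41 and 12.68 in vehicle at 72 h and 12.33, 12.04, 11.90, 12.30 and 12.24 after isoproterenol. The groups did not overlap, and the change was -0.43 ± 0.09 with an adjusted p of 0.0015.

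The complex IV genes include 3 forms typical of heart and skeletal muscle: Cox6a2, Cox7a1 and Cox8b. Cox7a1 read 10.05, 10.20 and 10.28 in vehicle at 72 h and 9.66, 9.67, 8.56, 9.25 and 9.32 after isoproterenol, with no overlap. Its change of -0.88 ± 0.29, with an adjusted p of 0.028, was the largest fall at that time among the probe sets that stand for a gene. At 24 h it read 9.73, 9.66 and 9.53 against 8.70, 9.28, 9.53 and 7.82, a change of -0.81 ± 0.30 with an adjusted p of 0.072. The isoproterenol arrays of 24 h were widely spread, and replicate 3 reached the vehicle range.

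Cox6a2 read 12.83, 12.74 and 12.88 in vehicle at 72 h and 12.67, 12.46, 12.18, 12.68 and 12.63 after isoproterenol, with no overlap, a change of -0.29 ± 0.10 and an adjusted p of 0.043. Cox8b read 12.51, 12.78 and 12.87 against 12.69, 12.19, 11.90, 12.59 and 12.49. The Cox8b groups overlapped, and the change of -0.35 ± 0.13 did not pass, with an adjusted p of 0.065. The widely expressed forms of the same subunits had changes at 72 h of -0.05 ± 0.12 for Cox6a1, with an adjusted p of 0.81, and -0.18 ± 0.12 for Cox8a, with an adjusted p of 0.33. The difference between the muscle and the widely expressed forms was not tested.

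Cox5a, which lies on the matrix side of complex IV, was a dim probe set with scattered values. At 72 h it read 7.85, 8.71 and 8.97 in vehicle and 7.72, 7.73, 7.02, 8.20 and 7.71 after isoproterenol. The groups overlapped, and the change was -0.83 ± 0.28 with an adjusted p of 0.033. Cox4i1, a large nuclear subunit that contacts the catalytic core, was among the least changed, at -0.07 ± 0.08 with an adjusted p of 0.61.

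Complex V had 6 measured subunits. None passed at 24 h, where the median was -0.12. At an unadjusted p under 0.05, 2 of the 6 differed at that time, as did 3862 of the 12451 genes tested. At 72 h 2 were lower, with a median of -0.18. Atp5po, part of the stalk that holds the catalytic head, read 12.48, 12.42 and 12.62 in vehicle and 12.53, 11.84, 11.73, 12.16 and 12.27 after isoproterenol, so isoproterenol replicate 1 lay among the vehicle arrays. The change was -0.40 ± 0.13 with an adjusted p of 0.027. A second, dimmer Atp5po probe set changed by 0.45 ± 0.36 at 72 h, which did not pass, and with the mean of both probe sets the gene's change was 0.03. Atp5f1a, the alpha subunit of the head, changed by -0.31 ± 0.10 with an adjusted p of 0.030 and no overlap. Atp5f1b, the catalytic beta subunit, changed by -0.08 ± 0.08 with an adjusted p of 0.58.

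The smaller changes of complex V depended on how the arrays were scaled. With quantile normalization the medians at 72 h were -0.42, -0.46, -0.31, -0.35 and -0.18 for complexes I to V. With arrays centred on their medians they were -0.45, -0.54, -0.45, -0.51 and -0.46, and 6, 3, 5, 7 and 5 subunits passed. With scaling by trimmed means they were -0.60, -0.70, -0.60, -0.66 and -0.62, and 22, 4, 6, 8 and 5 passed. Complex II had the lowest median under each of these 3 scalings, whereas complex V had the smallest change only after quantile normalization. Without any normalization all probe sets shifted, by a median of 0.47 at 24 h and 0.36 at 72 h, and the subunits had medians of 0.24 and -0.11, which were -0.23 and -0.47 relative to that shift. Members of a complex are not replicates, so no test was run between complexes.

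**Figure D3:**
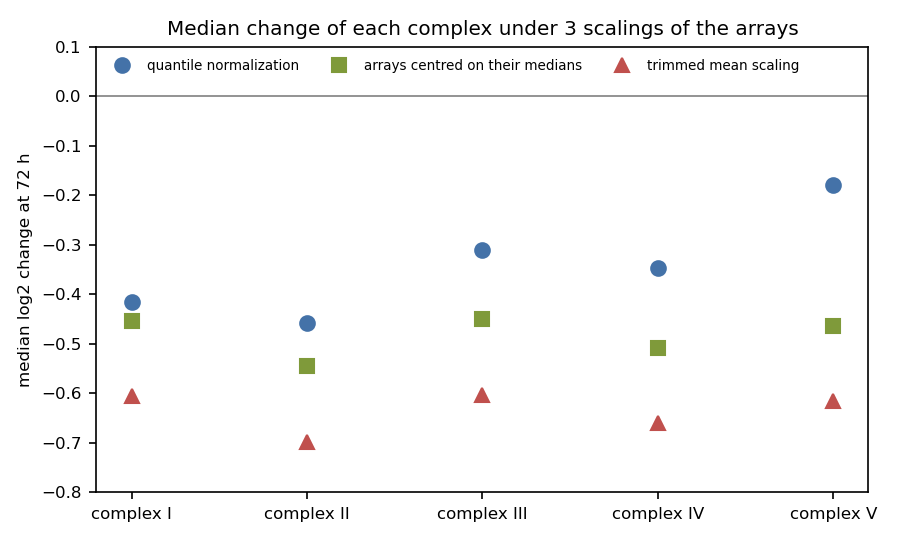
Median log2 change at 72 h of the measured subunits of complexes I to V under 3 scalings of the arrays. The 5 medians lie between -0.46 and -0.18 after quantile normalization and between -0.70 and -0.60 after trimmed mean scaling, where complex V no longer stands apart.

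The change at 72 h also varied with the brightness of the probe set. Across the 50 subunits, Spearman's rho between the vehicle level and the change was 0.50 and Pearson's r was 0.48, against 0.12 and 0.10 at 24 h. These values describe 50 genes measured on the same arrays, which are not independent, and levels near the top of the range were brought to one distribution by the normalization. The brightest subunits, Atp5f1b, Cox4i1, Atp5f1c and Ndufb9, had changes between -0.19 and -0.07 and did not pass. Among all 152 genes with a vehicle level of at least 12, a limit chosen after the values were seen, 34.9% were lower at 72 h. Of these, 32 were subunits described here, with 21 lower (65.6%) and a median of -0.36. The other 120, which still hold some of the further subunits counted below, had 32 lower (26.7%) and a median of -0.19. At 24 h 6 of the 32 subunits (18.8%) were lower, with a median of -0.24, and 30 of the other 120 (25%), with a median of -0.19.

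**Figure D4:**
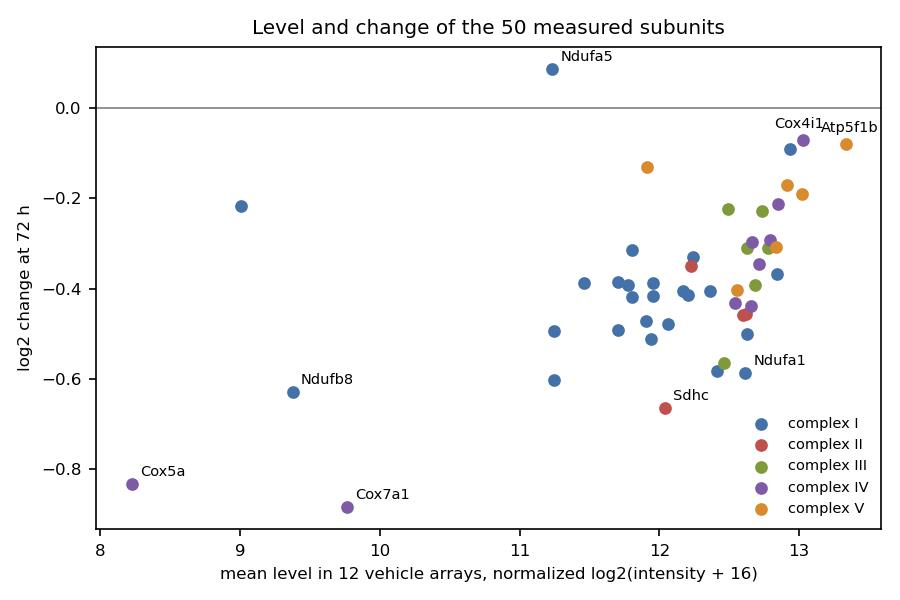
Change at 72 h (vertical, log2) against the mean level in the 12 vehicle arrays (horizontal, normalized log2(intensity + 16)) for the brightest probe set of each of the 50 measured subunits, coloured by complex. The falls of more than 0.8 are the dim Cox5a and Cox7a1, and changes near 0 are seen for the brightest probe sets, with Ndufa5 the single point above 0.

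Whether the isoproterenol effect differed between times was tested directly. No subunit passed for the difference between successive times, where 0.731%, 8.33% and 2.71% of all genes passed for 3 minus 1 h, 24 minus 3 h and 72 minus 24 h. At an unadjusted p under 0.05 there were 0, 2 and 3 subunits. For the effect at 72 h minus that at 1 h, a comparison added after the values were seen, 49 of the 50 differences were below 0 and 2 passed, where 10.8% of all genes passed. These were Ndufa1, at -0.66 ± 0.18 with an adjusted p of 0.017, and Sdhc, at -0.64 ± 0.19 with an adjusted p of 0.029. For 24 h minus 1 h no subunit passed, with a lowest adjusted p of 0.13, where 7.72% of all genes passed. The falls at 24 and at 72 h are therefore not shown to differ from each other.

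The remaining genes of the pathway were counted in further lists. Of 31 further nuclear subunits, 26 were measured, and 0, 1, 1 and 16 were lower at 1, 3, 24 and 72 h with none higher. The 1 lower gene made 3.85% at 3 h and at 24 h, against 6.33% and 7.19% of all genes. The 16 of 72 h were 61.5% of those measured, against 8.71% of all genes, with a median of -0.41. At that time the largest falls among them were -0.86 ± 0.25 for Atp5me, a membrane subunit of the ATP synthase (adjusted p 0.014), and -0.73 ± 0.18 for Ndufv3, an accessory subunit of complex I (adjusted p 0.0044). Cox4i2, a form of the fourth complex IV subunit linked to low oxygen, was the 1 lower gene at 3 h, at -1.02 ± 0.20 with an adjusted p of 7.3e-04.

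Assembly factors, which insert cofactors and join subunits, were lower in 0, 3, 5 and 14 of 41 measured. The shares at 3, 24 and 72 h were 7.32%, 12.2% and 34.1%, against 6.33%, 7.19% and 8.71% of all genes, and the median at 72 h was -0.35. The largest falls at 72 h were -1.13 ± 0.19 for Cox20, which assists maturation of a complex IV core subunit (adjusted p 1.0e-04), and -0.97 ± 0.19 for Sdhaf4, which assists assembly of Sdha and Sdhb (adjusted p 7.0e-04). A further list held 8 genes, all measured, that carry adenine nucleotides, phosphate or phosphocreatine energy out of the mitochondrion. Against 7.19% and 8.71% of all genes, 1 of the 8 was lower at 24 h (12.5%) and 2 at 72 h (25%). These were the outer membrane channel Vdac1, at -0.45 ± 0.12 and -0.43 ± 0.11, and at 72 h also Vdac2, at -0.30 ± 0.10.

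Among 15 regulators of mitochondrial gene expression, Ppargc1a, the coactivator known for driving mitochondrial biogenesis, was higher at the early times. Its change was 0.86 ± 0.24 at 1 h (adjusted p 0.039) and 0.94 ± 0.25 at 3 h (adjusted p 0.011). It was -0.62 ± 0.25 at 24 h, which did not pass (adjusted p 0.10), and -0.73 ± 0.24 at 72 h (adjusted p 0.029). In all, 0, 3, 3 and 5 of the 15 were lower at the 4 times, or 20% at 3 and 24 h and 33.3% at 72 h. The shares of all genes lower at 3, 24 and 72 h were 6.33%, 7.19% and 8.71%. At 72 h the largest falls were -1.04 ± 0.25 for Ppargc1b, a related coactivator (adjusted p 0.0041), and -1.01 ± 0.22 for Tfb2m, a factor for transcription of mitochondrial DNA (adjusted p 0.0020).

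Markers of other cells moved at the times when the subunits fell. Of 20 macrophage genes 19 were measured, none at 0 on any array. Of these, 13 rose at 24 h (68.4%) and 18 at 72 h (94.7%), against 10.0% and 13.3% of all genes. Their median change was 1.91 at 72 h. Their summed intensity was 5900 to 6422 on the vehicle arrays of 72 h and 8799 to 26320 on the isoproterenol arrays. Cd68, a lysosomal protein of macrophages, rose by 2.83 ± 0.49 (adjusted p 1.7e-04). Of 15 fibroblast and mural cell genes, all measured and none at 0, 10 rose at 72 h (66.7%, against 13.3% of all genes). At 24 h 2 rose (13.3%) and 1 was lower (6.67%), close to the 10.0% and 7.19% of all genes. Their summed intensity at 72 h was 15860 to 21850 in vehicle and 24950 to 61970 after isoproterenol. Postn, a matrix protein of activated fibroblasts, rose by 5.23 ± 0.54 (adjusted p 8.8e-07). At 24 h the macrophage sum was 6095 to 8023 in vehicle and 10530 to 23810 after isoproterenol, and that of the fibroblast and mural list was 16030 to 21020 and 19440 to 26020.

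The cardiomyocyte sarcomere genes had smaller median changes after quantile normalization. Their median vehicle level of 13.07 was above the 12.39 of the subunits, and the brightest subunits also changed little. The part of brightness in this difference was not tested. Of 18 measured, 3 were lower (16.7%) and 1 higher at 24 h, where 7.19% of all genes were lower. At 72 h 1 was lower (5.56%, against 8.71% of all genes), Tcap, at -0.42 ± 0.15 with an adjusted p of 0.044. The median change of the list was -0.13 at 24 h and -0.08 at 72 h. Its summed intensity was 141900 to 143800 on the vehicle arrays of 72 h and 126000 to 142300 on the isoproterenol arrays. Of 4 measured erythroid genes 3 were lower at 72 h (75%, against 8.71% of all genes). Of 6 measured neutrophil genes 2, 4, 1 and 0 were higher at the 4 times. These were 33.3%, 66.7%, 16.7% and 0%, against 2.37%, 6.94%, 10.0% and 13.3% of all genes. Of 10 measured endothelial genes 2 were higher at 1 h (20%), against 2.37% of all genes. At 3 h 1 was higher (10%) and 3 lower (30%), against 6.94% and 6.33% of all genes. At 24 h 1 was lower and at 72 h 1 (10% each), close to the 7.19% and 8.71% of all genes. Adipocyte (4 measured), lymphocyte and mast cell (5 measured) and skeletal muscle (6 measured) lists had at most 1 gene higher and 1 gene lower at 24 or 72 h.

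Array by array, the subunit mean and the macrophage mean stood in nearly opposite order among isoproterenol hearts of 72 h. Mean levels of the 50 subunits were 12.002, 11.55, 11.35, 11.79 and 11.79 on isoproterenol replicates 1 to 5, and those of the macrophage list were 7.77, 9.41, 9.54, 9.02 and 9.33. The vehicle arrays of 72 h had subunit means of 12.13, 11.96 and 12.15 and macrophage means of 6.995, 7.31 and 6.98. Isoproterenol replicate 1 thus lay within the vehicle range for the subunits and nearest to it for the macrophage list, and replicate 3 was at the far end for both. At 24 h this order did not hold across the group. Isoproterenol replicates 1 to 4 had subunit means of 11.78, 11.81, 11.96 and 11.62 and macrophage means of 8.79, 9.32, 8.10 and 8.81. Replicate 3 was highest for the subunits and lowest for the macrophage list, whereas replicate 2, highest for the macrophage list, was second highest for the subunits. The part of cell composition in the subunit falls was not tested.

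**Figure D5:**
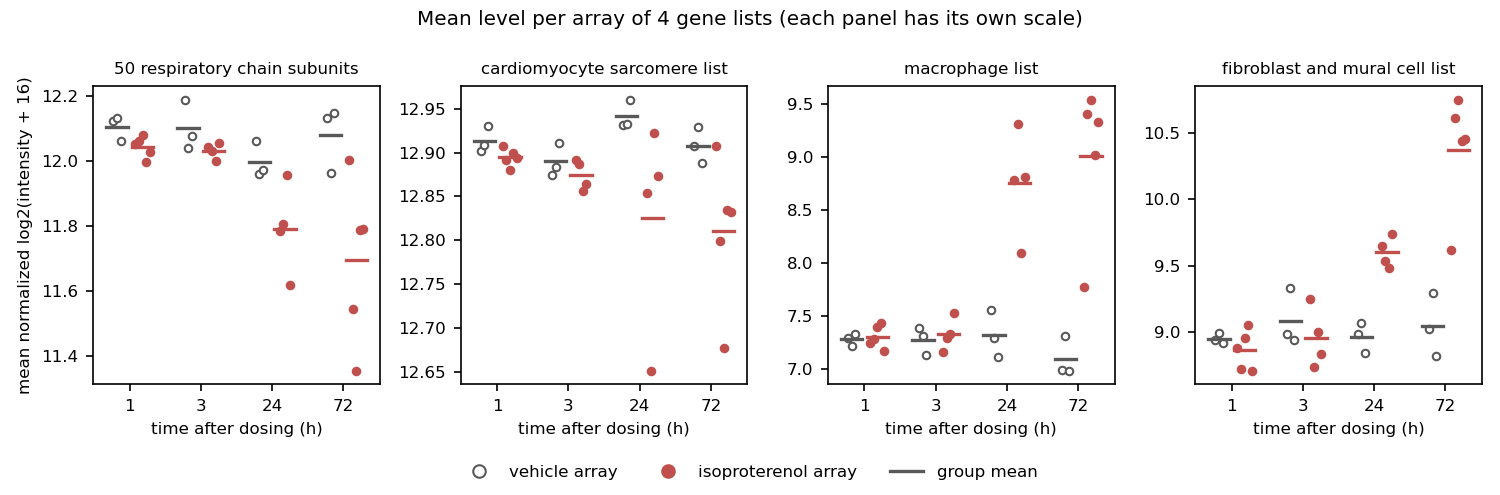
Mean normalized log2(intensity + 16) per array of the 50 subunits and of the cardiomyocyte sarcomere, macrophage, and fibroblast and mural cell lists at 1, 3, 24 and 72 h; open points are vehicle arrays, filled points isoproterenol arrays and lines group means, each panel on its own scale. At 72 h the subunit means run from 11.35 to 12.002 after isoproterenol against 11.96 to 12.15 in vehicle, while the macrophage means run from 7.77 to 9.54 against 6.98 to 7.31.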

How the data were processed

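The authors' deposited table holds linear intensity values for 31099 probe sets on 30 arrays. Per the labels, total RNA was labelled with the standard Affymetrix protocol, and how probes were summarised is not stated in the sources used here. From these, log2(intensity + 16) was computed and quantile normalized. A probe set was kept if it reached an intensity of 23, the 40th percentile, in at least 3 arrays, which left 24292 without the 57 controls. limma 3.58.1 in R 4.3.3 fitted 8 group means to all arrays (22 residual degrees of freedom, intensity trend). Tests were two-sided, with Benjamini-Hochberg adjustment within each contrast and a threshold of 0.05. The procedure was tested on simulated data, with probe sets drawn independently and the same spread in all groups. That test therefore does not cover genes that move together or the wider spread of the late groups. Probe sets were named through platform annotation updated by gene number, and the brightest tested probe set stood for a gene. With 3 to 5 arrays per group, their number limits the precision.

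The genes and lists were chosen with earlier results of these data known. Genes named with values are, at each time, the 6 members with the largest change past the threshold in each direction and the leading one of each complex. Also named, whatever their values, are the complex II genes, the muscle forms of complex IV and their partners, Ndufa4, members not measured or with probe sets that disagree in the direction of a called change, and up to 2 genes per direction and time in other lists. The remaining genes in the text were named after their values were seen. Replicate numbers of the labels did not pair arrays: of 12 same-numbered pairs, 2 deviated together with a correlation over 0.1. Alternatives covered the pseudocount, normalization, filter, variance model, array weights, arrays fitted, probe set choice and leaving out each array.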

Additional observations from a re-analysis of the deposited data

Results flagged for a closer look

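Among 68 groups of 4 or 5 isoproterenol arrays, for the subunits named by rule and for the subunit mean, 2 held an array apart from the others. By chance alone about 1 in 20 groups is marked. Ndufb6 read 11.153 on isoproterenol replicate 2 of 1 h, and the other 4 arrays lay between 10.908 and 10.956. Sdha read 12.45 on isoproterenol replicate 1 of 3 h, and the other 3 arrays lay between 12.517 and 12.529. Neither time had a subunit past the threshold.

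The isoproterenol effect differed between times for 2 of the 50 subunits and 1 further probe set in limma's test of the difference itself. The effect at 72 h minus that at 1 h was -0.66 for Ndufa1 and -0.64 for Sdhc, a comparison added after the values were seen. In that comparison 10.8% of all genes passed, and in the comparison of 24 h minus 3 h 8.33% did. For the dim second probe set of Ndufa7, the effect at 24 h minus that at 3 h was -0.996 ± 0.28 with an adjusted p of 0.031, while the bright probe set of that gene did not pass.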

How the results depend on the processing

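Of the 50 subunits, 7 passed as lower at 24 h and 31 at 72 h. At 72 h the count was 0 without normalization, 20 without the intensity trend and 3 with only the arrays of that time. At 24 h it was 4 with a pseudocount of 1, 1 with arrays centred on their medians, 0 without normalization, 2 with trimmed mean scaling, 2 without the filter, 1 without the intensity trend, 20 with array weights and 0 with only the arrays of that time. With the replicate number as a block it was 4 at 24 h and 26 at 72 h, although the numbers did not pair the arrays. Otherwise 3 passed as lower at 1 h with only that time's arrays, and 1 as higher at 3 h with the mean of all probe sets of a gene. Trimmed means were taken with equal weights, in place of the weights made for counts that were tried first. Leaving out 1 array gave 0 to 1 lower at 3 h, 0 to 14 at 24 h and 13 to 43 at 72 h.

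The median change of the subunits was, without normalization, -0.23, -0.14, 0.24 and -0.11 at the 4 times, where all probe sets had medians of -0.23, -0.19, 0.47 and 0.36. With trimmed mean scaling it was 0.020, 0.0777, -0.34 and -0.62, and with arrays centred on their medians it was 0.0753 at 3 h. Without normalization, 6 genes that passed as lower at 24 h turned sign: Ndufa9 0.13, Ndufs3 0.18, Sdha 0.064, Sdhb 0.11, Sdhc 0.0837 and Sdhd 0.15. Atp5po turned to 0.0258 at 72 h with the mean of its probe sets. Leaving out 1 array gave medians of -0.06 to -0.03, -0.0876 to -0.0403, -0.25 to -0.13 and -0.48 to -0.31.

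Probe sets past the threshold numbered, at 1 h, 190 without normalization, 1699 with array weights and 1317 with only that time's arrays, and at 3 h 478 without normalization and 1332 with only that time's arrays. At 24 h they numbered 5249 with array weights and 2103 with only that time's arrays, and at 72 h 2380 without normalization, 7200 with array weights and 2398 with only that time's arrays. Without 1 array they numbered 393 to 607, 1868 to 3024, 1580 to 4413 and 2416 to 5654 at the 4 times. The causes of these shifts were not tested. Of the probe sets that passed, 53.6%, 56.2% and 52.6% were higher at 3, 24 and 72 h. With arrays centred on their medians these shares were 67.3%, 68.4% and 76.8%, with trimmed mean scaling 66.4% at 24 h, and without normalization 99.5% and 98.8% at 24 and 72 h. The number of arrays, and not a read depth, limits the precision here.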
